A study of Mus musculus with 11 samples.

Results

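Ribosome-bound RNA of wild-type spinal cord microglia was described in 6 libraries, WT8, WT9, WT13, WT15, WT16 and WT17, which are the libraries labelled wildtype among the 11 of the series. The study isolated microglial RNA from healthy female C57BL/6 mice that carried a RiboTag allele together with Tmem119-Cre/ERT2, and compared them with mice in which the same recombinase deleted Kdm6a, an X-linked histone demethylase. Only the wild-type libraries are used here, and no genotypes are compared. All 6 carried the RiboTag allele and the Cre driver, so mice without Cre are not part of this account. The age of the mice, the induction of the Cre and the number of animals behind a library are not stated in the labels used here, so the spread between libraries may be partly technical.

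Microglia are the resident macrophages of the central nervous system. They depend on signalling through the Csf1 receptor and on TGF-beta, survey the tissue with motile processes, sense nucleotides released from damaged cells, and engulf debris and synapses that complement has tagged. In RiboTag mice, Cre switches the ribosomal protein gene Rpl22 to a form with an epitope tag, and ribosomes of the Cre-expressing cells are then pulled down with the mRNA bound to them. RNA from other cells can stick to the beads and be carried over. Libraries of the unbound or total RNA are not analysed here, so the enrichment of a gene over the whole tissue is not known, and fewer cells of a type cannot be told apart from less RNA per cell.

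The deposited table gave whole-number counts for 39017 Ensembl genes, and the wild-type libraries held 32768942 to 40943004 counts each. A gene was called present if it reached 1 CPM (counts scaled to library size) in all 6 libraries, which corresponds to 31.6 to 43.0 counts, and counted but low if it had counts and stayed below 1 CPM in every library. A level is CPM divided by the length of all annotated exons merged, in kilobases, written "per kb", and is given as the mean ± SD over the 6 libraries (n = 6) unless stated. Of 21303 protein-coding genes, 11185 (52.5%) were present, 2495 reached 1 CPM in some libraries only, 1774 were low and 5849 (27.5%) were listed at 0 in all 6. Every count of present family members given below is to be read beside the 52.5%. Zeros need care, because 3493 of the genes at 0 lay in runs of at least 5 neighbouring protein-coding genes at 0. Also at 0 were 5 of 39 proteasome subunits, 3 of them in such runs. The same held for 6 of 95 nuclear oxidative phosphorylation genes, 4 of them in such runs. As families these serve every cell, but whether each member at 0 does was not tested. Genes at 0 are therefore reported as listed at 0, not as absent. Over the 6 libraries a sum of 0 counts allows up to 0.0142 CPM, or 0.0283 CPM if each fragment gave 2 counts, since most small counts were even; both cover counting error only. The gene that the study deleted elsewhere, Kdm6a, had 9.85 ± 1.94 CPM here.

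Markers of microglia were by far the most abundant of the cell type lists. Of 24 microglial markers 21 were present, Slc2a5, a hexose transporter, was low, and Trem2 and Aif1 were listed at 0 within runs of such genes. The summed level of the list was 29208 per kb in the lowest library, WT17, and 40054 per kb in the highest, WT15. Tmem119, the gene that drives the Cre, had 376 per kb in its lowest library, WT17, a median of 439 per kb, and 509 per kb in its highest, WT8, and the sensor of nucleotides P2ry12 had 288 per kb in its lowest library, WT13, a median of 402 per kb, and 528 per kb in its highest, WT9. Markers of other macrophages and of blood leukocytes were scarce. Of 10 markers of border-associated macrophages only Stab1 was present, at 10.01 ± 1.84 per kb, while Mrc1, F13a1, Cbr2 and Ms4a7 were low. None of 12 monocyte and neutrophil markers was present, their summed level never passed 1.26 per kb, and Ccr2 reached 1 CPM in some libraries only. Of 12 lymphocyte markers only Cd79b, a chain of the B cell receptor complex, was present, at 13.3 ± 3.41 per kb.

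Markers of neurons and macroglia were nevertheless measured in every library. Present were 18 of 20 neuronal, 16 of 16 astrocyte, 14 of 16 oligodendrocyte and 9 of 10 oligodendrocyte precursor markers, so presence by itself does not assign a gene to microglia. The highest were Mbp, a myelin protein, at 393 ± 41.1 per kb, the neurofilament gene Nefh at 169 ± 95.1 per kb, the astrocyte pump subunit Atp1b2 at 129 ± 12.96 per kb and the glial filament gene Gfap at 103 ± 28.8 per kb. The summed levels ranged over libraries from 375 to 795 per kb for neuronal, from 475 to 614 per kb for astrocyte and from 782 to 993 per kb for oligodendrocyte markers. WT17 and WT13 held the highest summed levels of these 3 lists and the lowest of the microglial list. The part of RNA from other cells in any single level was not tested. Markers of other cells also differed between libraries. All 7 present fibroblast markers were highest in WT17, against 19.2% of 8603 protein-coding genes at a mean of 10 CPM or more. Of 8 present endothelial markers 7 were highest in WT13, against 18.1% of those genes. Only 5 listed fibroblast and 3 listed endothelial markers reached that mean. Prx, a gene of myelinating Schwann cells, had 10.6 per kb in WT17 against at most 0.592 per kb elsewhere. Pmp22, also on the Schwann cell list, did not share this pattern and ranged from 195 to 249.9 per kb. For the 4 Schwann cell markers at a mean of 10 CPM or more, the SD was 9.03% to 240.65% of the mean.

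**Figure D1:**
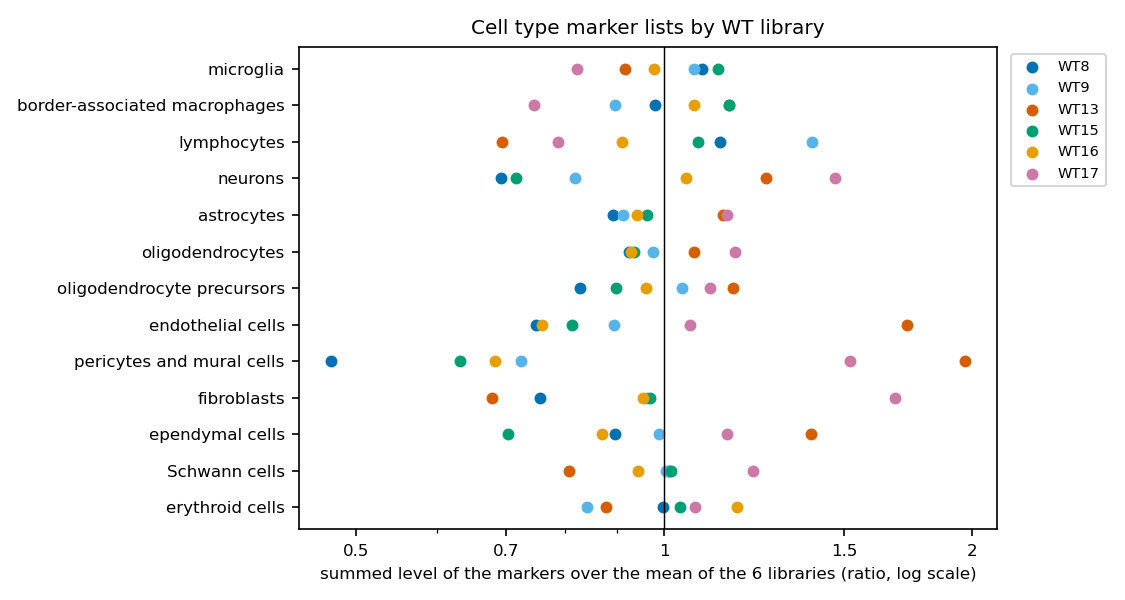
Summed level of each cell type marker list in each WT library, divided by the mean of the 6 libraries (log scale), with 1 point per library; the list of monocytes and neutrophils, at most 1.26 per kb, is left out. WT17 and WT13 lie lowest for microglial markers, where the sums run from 29208 to 40054 per kb, and highest for neuronal markers, where they run from 375 to 795 per kb.

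The most abundant message was Cst3, which encodes cystatin C, a secreted inhibitor of cysteine proteases, at 13037 ± 1571 per kb. Next came C1qb at 7945 ± 1033 per kb and C1qa at 7914 ± 997 per kb, subunits of C1q, the recognition molecule of the classical complement pathway. Their order was not resolved, since C1qb exceeded C1qa in 2 of 6 libraries. The remaining subunit, C1qc, ranked 7 at 3801 ± 509.8 per kb. Lysosomal proteases and their helpers were the next large group among the 20 highest genes. Ctsd, an aspartic protease, had 5182 ± 599 per kb, Ctss, a cysteine protease used in antigen processing, had 3796 ± 407 per kb, Lgmn, an asparaginyl endopeptidase, had 1146 ± 110.4 per kb, and Psap, the precursor of the saposins that help degrade sphingolipids, had 1862 ± 217 per kb.

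Cytoskeletal genes were also high, with Tmsb4x, an actin-sequestering peptide, at 4341 ± 451 per kb and Actb, cytoplasmic actin, at 4076 ± 553 per kb. Among surface proteins in the 20, B2m, the light chain of MHC class I, had 3072 ± 422 per kb, Selplg, the ligand of P-selectin, had 1626 ± 207 per kb, the Csf1 receptor Csf1r had 1425 ± 164 per kb, the activating Fc receptor Fcgr3 had 1302 ± 163 per kb and the fractalkine receptor Cx3cr1 had 1298 ± 161 per kb. Also among the 20 were the matricellular protein Sparc at 2167 ± 309 per kb, the selenium carrier Selenop at 1380.4 ± 157 per kb, the pore-forming protein Mpeg1 at 1205 ± 144 per kb and the adaptor Bcar1 at 1609.8 ± 246 per kb. From Selplg down to Cx3cr1 no neighbours in the order were separated in all 6 libraries: for example, Fcgr3 exceeded Cx3cr1 in 3 of 6. WT17 was the lowest library for 16 of the 20 genes and WT13 for the other 4. Of 8603 protein-coding genes at a mean of 10 CPM or more, 26% were lowest in WT17 and 27.3% in WT13. Ctsd, Csf1r and Selenop shared exon positions with the annotated genes Gm49369, Hmgxb3 and Ccdc152, whose reads cannot be told apart here because the use of strand in counting is not given.

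Without correction for length, Trp53bp1, a DNA damage response protein with long exons, ranked second after Cst3 at 13802 ± 1656 CPM, and its level was 974 ± 117 per kb; it was picked out after its values were seen. Its exons overlap those of Tubgcp4. The 10 protein-coding genes with most counts took 8.68% to 10.9% of a library, and 658 genes held 50% of all counts. Present protein-coding genes had a median level of 6.08 per kb, with 332 genes at 100 per kb or more and 28 at 1000 per kb or more.

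**Figure D2:**
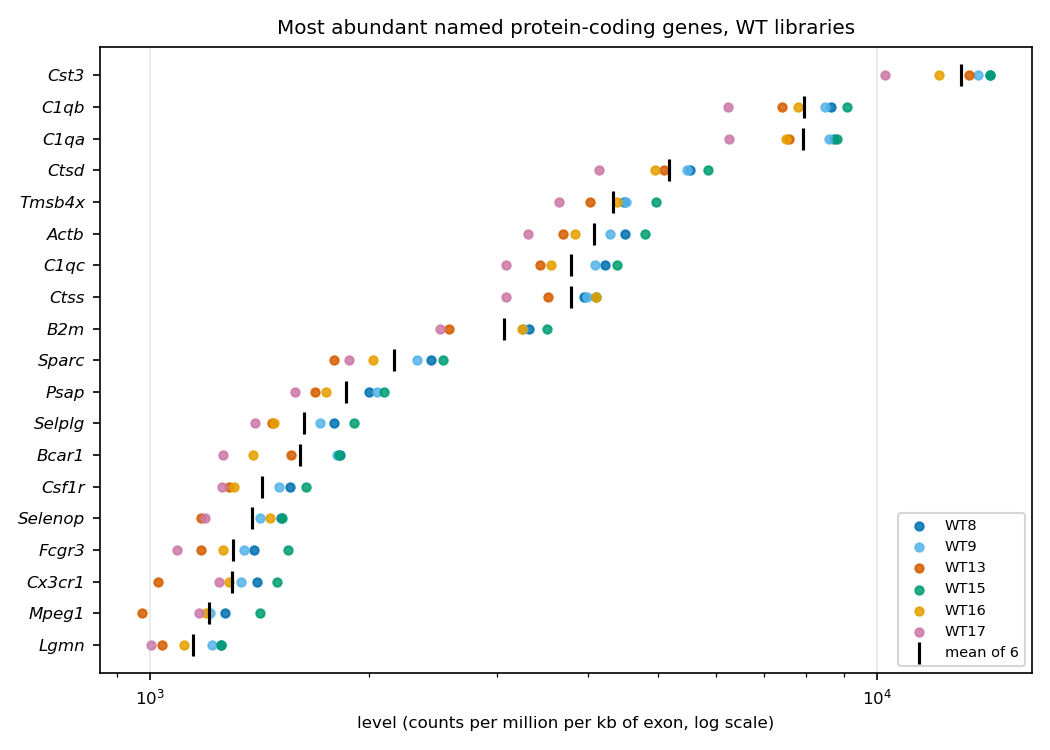
Level of 19 of the 20 most abundant named protein-coding genes (CPM per kb of merged exon, log scale), with 1 point per WT library and a bar at the mean of 6. Cst3 stands apart at 13037 per kb, C1qb, C1qa and Ctsd follow, and WT17 or WT13 is the lowest library for every gene shown.

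The sequences just before the start sites of several of these genes are shown because the number of CpG dinucleotides there is described for the most abundant messages. The sequences come from RefSeq on GRCm38.p6, cover the 250 bases upstream of the start, and read 5′ to 3′ in the direction of the gene with each CG in capitals. C1qb and C1qc lie beside each other on chromosome 4, at chr4:136886201-136886450 and chr4:136892915-136893164, both on the minus strand. Cst3 lies at chr2:148875513-148875762, minus strand, Ctss at chr3:95526536-95526785, plus strand, Mpeg1 at chr19:12460520-12460769, plus strand, and Ctsd at chr7:142387828-142388077, minus strand.
C1qb: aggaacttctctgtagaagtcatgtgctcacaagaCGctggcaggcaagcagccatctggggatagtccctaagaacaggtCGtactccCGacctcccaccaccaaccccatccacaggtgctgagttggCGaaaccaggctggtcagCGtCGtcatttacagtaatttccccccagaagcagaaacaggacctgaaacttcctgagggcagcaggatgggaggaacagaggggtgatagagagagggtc
C1qc: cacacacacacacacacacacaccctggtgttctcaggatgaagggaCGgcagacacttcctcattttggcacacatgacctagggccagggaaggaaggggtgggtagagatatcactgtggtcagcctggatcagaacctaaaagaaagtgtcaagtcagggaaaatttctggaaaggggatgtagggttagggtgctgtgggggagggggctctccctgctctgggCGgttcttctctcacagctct
Cst3: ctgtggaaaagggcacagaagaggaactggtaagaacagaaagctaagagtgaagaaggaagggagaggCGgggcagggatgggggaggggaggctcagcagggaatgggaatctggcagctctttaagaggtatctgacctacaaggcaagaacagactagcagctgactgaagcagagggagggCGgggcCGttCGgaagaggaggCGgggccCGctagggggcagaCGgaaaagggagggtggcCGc
Ctss: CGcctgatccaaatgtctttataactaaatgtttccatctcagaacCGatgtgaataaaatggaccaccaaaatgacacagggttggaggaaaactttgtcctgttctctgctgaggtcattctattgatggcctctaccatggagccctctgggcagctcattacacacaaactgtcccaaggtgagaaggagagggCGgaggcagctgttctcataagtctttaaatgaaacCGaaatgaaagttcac
Mpeg1: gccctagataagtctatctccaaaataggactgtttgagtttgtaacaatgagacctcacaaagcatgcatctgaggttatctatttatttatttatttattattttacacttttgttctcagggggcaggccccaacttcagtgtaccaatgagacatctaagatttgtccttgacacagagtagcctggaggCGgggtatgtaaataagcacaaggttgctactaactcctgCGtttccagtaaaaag
Ctsd: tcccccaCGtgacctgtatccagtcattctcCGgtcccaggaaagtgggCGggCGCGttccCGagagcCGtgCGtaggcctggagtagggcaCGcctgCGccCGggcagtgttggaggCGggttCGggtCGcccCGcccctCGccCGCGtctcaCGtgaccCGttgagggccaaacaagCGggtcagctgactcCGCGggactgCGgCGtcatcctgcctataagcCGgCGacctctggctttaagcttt
C1qc and Mpeg1 each held 2 CG, Ctss 4, C1qb 6 and Cst3 8, while Ctsd held 27. Of the 20 most abundant genes 15 were matched in the RefSeq table, and taking the start with most CG where a gene had several, 10 of these 15 (66.7%) held at most 8. The share was 27.4% of 241 matched present genes at 100 per kb or more, 16.9% of all 8834 matched present genes, 42.4% of 1848 genes at 1 CPM in some libraries only, 61.6% of 1265 low genes and 86.3% of 4262 genes listed at 0. The letters GAGGAAGT, a core that PU.1 (Spi1) is known to bind, were searched on both strands and found before 2 of the 15, C1qc and Selenop, and before 2.91% of present genes and 2.37% of genes listed at 0. In C1qc the letters begin 195 bases before the start, on the opposite strand.

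Seen by family, the cathepsins took 2.47 ± 0.15% of all counts and the C1q subunits 2.41 ± 0.21%. The solute carriers, a family of 384 transporters, together took 1.40 ± 0.04%, the actins 1.09 ± 0.10%, the thymosins 0.597 ± 0.038%, the tetraspanins 0.513 ± 0.028% and the Rab GTPases of vesicle traffic 0.489 ± 0.017%. Proteins of translation took little: the cytosolic ribosomal proteins 0.408 ± 0.027%, the initiation factors 0.420 ± 0.012% and the elongation factors 0.412 ± 0.016%. Many ribosomal protein genes have near-identical pseudogene copies, 13 of 84 stayed under 1 CPM, and Gapdh, a glycolytic enzyme gene with many such copies that was picked out after its values were seen, had only 4.26 ± 3.13 CPM. Processed pseudogenes held 2.29% to 2.72% of counts. Levels of genes with such copies are therefore uncertain. Proteins encoded by the mitochondrial genome took 0.615 ± 0.063%, with 5 of 13 listed at 0. Of 23 genes of MHC class I with B2m 18 were at 0 and 5 were present, and of 10 class II genes 9 were at 0 and 1 was present. Most antigen presentation genes of the MHC could therefore not be described.

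Receptors and channels were read from 30 family lists with 582 members, of which 290 were present (49.8%, against 52.5% of all protein-coding genes), 138 reached 1 CPM in some libraries, 67 were low and 87 were listed at 0. Of those present, 113 had at least 10 per kb and 34 at least 100 per kb. The highest were receptors of immune surveillance: Csf1r, Fcgr3, Cx3cr1 and the Fc receptor gamma chain Fcer1g at 1075 ± 160.1 per kb, the adaptor Tyrobp at 881 ± 115 per kb, the inhibitory receptors Sirpa at 869 ± 116 per kb and Vsir at 853 ± 107 per kb, the lysosomal scavenger receptor Cd68 at 833 ± 87.3 per kb, and the integrin subunit Itgb5 at 662 ± 54.1 per kb.

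Growth and survival receptors came from few families. Besides Csf1r, the granulocyte factor receptor Csf3r had 77.7 ± 7.45 per kb and the shared beta chain Csf2rb had 17.9 ± 2.57 per kb. Both chains of the TGF-beta receptor were present, Tgfbr1 at 184 ± 24.5 per kb and Tgfbr2 at 143 ± 13.4 per kb, and the co-receptor endoglin (Eng) had 37.6 ± 4.89 per kb. Of this superfamily 10 of 15 receptors were present (66.7%, against 52.5% of all protein-coding genes). Of 34 receptor tyrosine kinases listed apart from the Csf and TAM families 17 were present at 1 CPM and 8 at 5 CPM, and the highest of the 34, Fgfr3, an astrocyte marker in the lists used here, had 8.01 ± 2.92 per kb.

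Of 9 P2Y nucleotide receptors 4 were present, and 3 of these had at least 100 per kb. P2ry13, a receptor for ADP, had 543 per kb in its lowest library, WT13, a median of 658 per kb, and 767 per kb in its highest, WT15. P2ry12, the ADP receptor that guides process extension, was lower, and P2ry6, a receptor for UDP linked to phagocytosis, had 104 ± 19.7 per kb. P2ry4 and P2ry10 were listed at 0. Among ATP-gated channels, P2rx7, which drives inflammasome activation, had 34.6 ± 5.77 per kb and P2rx4 had 9.00 ± 0.948 per kb. The adenosine receptor Adora3 had 50.3 ± 10.1 per kb, a value shared with the overlapping gene Tmigd3.

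Pattern recognition was represented by 9 of 12 Toll-like receptors (75%, against 52.5% of all protein-coding genes). Tlr2, for bacterial lipopeptides, had 76.7 ± 8.48 per kb, and the endosomal nucleic acid receptors Tlr13, Tlr7 and Tlr9 had 74.8 ± 11.2 per kb, 51.9 ± 11.2 per kb and 47.6 ± 8.21 per kb. Tlr8 was low, with 2 counts in all. Tlr genes were lowest in WT13 for 7 of the 9, against 27.3% of 8603 protein-coding genes at a mean of 10 CPM or more. Among C-type lectins 6 of 28 were present (21.4%, against 52.5% of all protein-coding genes). Clec5a had 32.03 ± 4.85 per kb and the beta-glucan receptor Clec7a (dectin-1) had 22.6 ± 4.30 per kb. Another 6 reached 1 CPM in some libraries only and 7 were low. The remaining 9 were listed without counts, and 7 of these lay in runs of such genes. Whether those 7 lectins were counted at all was not tested.

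Fc receptors and receptors that signal through immune tyrosine motifs were prominent. Fcrls, a microglial Fc receptor-like protein, had 491 ± 48.98 per kb and the high-affinity IgG receptor Fcgr1 had 222 ± 29.4 per kb, whereas the IgE receptor Fcer2a and Fcrl5 were listed at 0 and Fcrla was low. Siglecs, which bind sialic acids, were led by Siglech at 192 ± 30.7 per kb, Siglece at 69.5 ± 11.5 per kb and Cd33 at 29.5 ± 4.36 per kb; Mag, at 38.2 ± 12.9 per kb, belongs to this family and is also on the oligodendrocyte list. The immune checkpoint receptors Havcr2 (TIM-3) and Lag3 had 204 ± 37.3 per kb and 201 ± 24.2 per kb, and the collagen receptor Lair1 had 87.9 ± 14.5 per kb, while Ctla4 and Tigit were listed at 0. Of the TREM and CD300 families 5 of 16 were present (31.25%, against 52.5% of all protein-coding genes), with Cd300c2 at 173 ± 20.96 per kb. Of the same families 6 members, Trem2 among them, lay in runs of genes at 0.

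Uptake and complement receptors were read from 3 lists. Present were 9 of 12 TAM and apoptotic cell receptors (75%), 14 of 25 scavenger and lipoprotein receptors (56%) and 9 of 14 complement receptors (64.3%). The share of all protein-coding genes was 52.5%. The TAM receptor Mertk, which binds apoptotic cells through Gas6 and Pros1, had 90.02 ± 16.4 per kb and its relative Axl had 19.1 ± 2.58 per kb, while the phosphatidylserine receptor Timd4 was low. The lipoprotein receptor Lrp1 had 38.2 ± 2.96 per kb, and Cd36 and Marco, scavenger receptors of other macrophages, were low. Complement receptor 3 was present with both chains, Itgb2 at 247 ± 23.5 per kb and Itgam at 243 ± 25.2 per kb; Itgam shared 65.6% of its sequence words with the overlapping gene Gm49368. The anaphylatoxin receptors C3ar1 and C5ar1 had 56.8 ± 6.26 per kb and 40.5 ± 7.13 per kb, and Vsig4, a complement receptor of tissue macrophages, was low.

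Of 25 chemokine receptors 5 were present (20%, against 52.5% of all protein-coding genes), 10 reached 1 CPM in some libraries, 4 were low and 6 were at 0. After Cx3cr1 came the chemerin receptor Cmklr1 at 144 ± 26.7 per kb, and Ccr4 and Ccr7, both receptors of lymphocyte homing, were listed at 0. Of 46 interleukin receptor chains 22 were present (47.8%, against 52.5% of all protein-coding genes). They were led by the IL-10 receptor chain Il10ra at 115 ± 11.4 per kb, the shared chain Il6st (gp130) at 61.001 ± 4.61 per kb, Il21r at 50.8 ± 6.78 per kb and Il4ra at 47.2 ± 7.72 per kb. The IL-13 decoy receptor Il13ra2 and the IL-18 receptor chain Il18r1 were listed at 0. Both chains of the interferon-gamma receptor and of the type I interferon receptor were present, Ifngr1 highest at 272 ± 39.1 per kb and Ifnar1 lowest at 18.4 ± 1.74 per kb. TNF receptors were led by Tnfrsf1a at 126 ± 15.7 per kb and Tnfrsf21 (DR6) at 121 ± 13.3 per kb, followed by Tnfrsf13b (TACI) at 72.6 ± 6.51 per kb and Tnfrsf1b at 67.4 ± 9.74 per kb, and Fas was low.

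Receptors for lipids, transmitters and other small ligands divided by abundance. Gpr34, a lysophosphatidylserine receptor, had 234 ± 38.3 per kb, the platelet-activating factor receptor Ptafr had 68.6 ± 9.13 per kb, the oxysterol receptor Gpr183 had 61.1 ± 3.73 per kb, the medium-chain fatty acid receptor Gpr84 had 120.04 ± 11.999 per kb and the adhesion receptor Adgrg1 (GPR56) had 219.9 ± 22.8 per kb. Most transmitter receptors were present only at low levels: 20 of 26 glutamate receptors were present at 1 CPM and 7 at 5 CPM, the highest, Gria1, at 7.02 ± 1.15 per kb, and of 26 GABA and glycine receptors 9 were present at 1 CPM and 5 at 5 CPM, the highest, Glra1, at 11.2 ± 3.11 per kb. These 2 families followed the neuronal markers by library. Of the 20 glutamate receptors 17 were highest in WT13 or WT17 and 18 were lowest in WT8 or WT15, against 37.4% and 22.6% of 8603 protein-coding genes at a mean of 10 CPM or more, and 8 of the 9 GABA and glycine receptors were highest in WT13 or WT17. Only 8 listed glutamate receptors and 5 listed GABA and glycine receptors reached that mean, so the compared genes are more abundant. Microglial markers ran the other way, with all 21 present members lowest in WT13 or WT17, against 53.3% of those 8603 genes. Channels long studied in microglia included the proton channel Hvcn1 at 143 ± 15.7 per kb, the potassium channel Kcnk13 (THIK-1) at 32.4 ± 3.63 per kb, its relative Kcnk6 at 109 ± 14.1 per kb and the calcium channel Orai1 at 81.03 ± 8.23 per kb; Hvcn1 overlaps Tctn1.

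**Figure D3:**
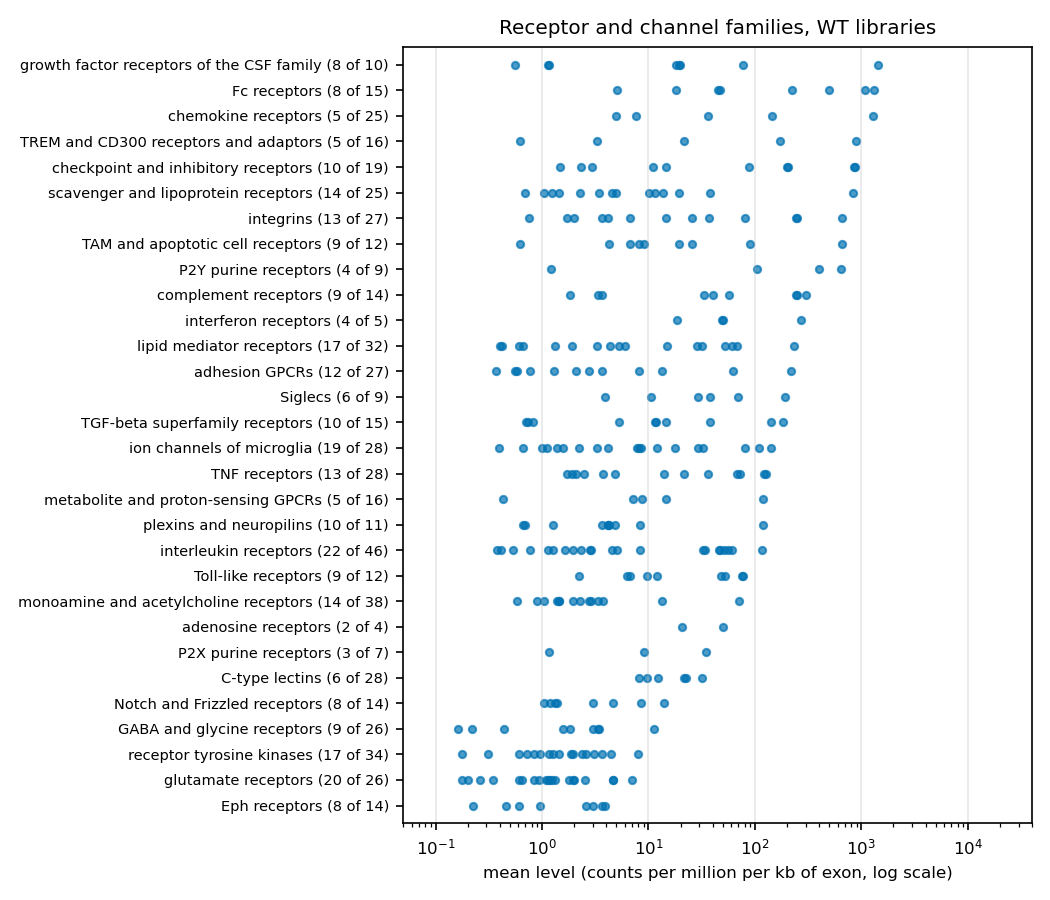
Mean level over the 6 WT libraries (CPM per kb of merged exon, log scale) of each present receptor or channel, by family, with the number present of the number listed in brackets. Csf1r, Fc receptors and Cx3cr1 reach over 1000 per kb, while the list of receptor tyrosine kinases, which leaves out the Csf and TAM families, and the glutamate and Eph receptors stay below 10 per kb.

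Transcription factors were read from 22 family lists with 320 members, of which 190 (59.4%, against 52.5% of all protein-coding genes) were present, 49 reached 1 CPM in some libraries, 38 were low and 43 were at 0. Their levels were lower than those of receptors at the top: 8 had at least 100 per kb and 82 at least 10 per kb. They included Cebpa at 278 ± 37.2 per kb, Sall1 at 230.2 ± 30.1 per kb, Spi1 at 179.7 ± 23.8 per kb, Irf5 at 158 ± 18.1 per kb, Ikzf1 at 113 ± 12.8 per kb, Lyl1 at 111 ± 17.8 per kb and Irf8 at 106 ± 15.7 per kb. Spi1 (PU.1), Irf8 and Cebpa are known to establish the macrophage lineage, Sall1 to maintain the microglial state, and Ikzf1 and Lyl1 act in blood cell development. Spi1 had 143 per kb in its lowest library, WT17, a median of 183 per kb, and 203 per kb in its highest, WT15, and Sall1 had 187 per kb in its lowest library, WT13, a median of 238 per kb, and 258 per kb in its highest, WT9.

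Behind these, factors that act on signals were present across families. All 8 Smad factors, which carry TGF-beta and BMP signals, were present, Smad3 highest at 46.999 ± 5.27 per kb. The 5 NF-kB subunits were present, Rela highest at 55.1 ± 7.49 per kb and Rel lowest at 0.681 ± 0.262 per kb, and 6 of 7 Stat factors were, with Stat6 at 48.7 ± 7.74 per kb and Stat4, an IL-12 signal carrier, low. Mef2d had 43.5 ± 3.46 per kb, Mef2c 17.5 ± 2.57 per kb and Mef2a 16.5 ± 2.50 per kb. Junb at 83.5 ± 13.8 per kb and Jun at 36.4 ± 6.19 per kb led the AP-1 genes, and Egr2 was listed at 0. Nfe2l2 (NRF2), the regulator of antioxidant genes, had 57.8 ± 11.7 per kb, Bhlhe41 had 53.3 ± 10.4 per kb, and the retinoid X receptor Rxra led the nuclear receptors at 33.7 ± 4.75 per kb. The lysosomal regulators Tfe3 and Tfeb had 36.9 ± 3.84 per kb and 13.9 ± 1.66 per kb.

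Families known mainly from other lineages or from body patterning differed in how many members were present. No Gata factor was present in all libraries, and Gata1, Gata4 and Gata5 were listed at 0. Spib and Spic, relatives of Spi1 in lymphoid and splenic cells, and Runx3 were listed at 0, while Runx1 had 9.22 ± 2.34 per kb. Hox factors, which mark position along the body axis, were present in 24 of 38 cases at 1 CPM and 11 at 5 CPM, the highest being Hoxb8 at 23.1 ± 2.08 per kb and Hoxb9 at 14.6 ± 1.38 per kb, both genes of the trunk region. Of the 24, 20 were highest in WT13 or WT17, against 37.4% of the 8603 genes at a mean of 10 CPM or more. Only 8 listed Hox factors reached that mean, so the compared genes are more abundant. Hoxb8 itself ran from 19.3 per kb in WT16 to 24.6 per kb in WT17. Sox10, a factor of the oligodendrocyte lineage, had 14.8 ± 3.92 per kb.

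Secreted factors were read from 19 lists with 384 members, of which 134 were present (34.9%, against 52.5% of all protein-coding genes), 74 reached 1 CPM in some libraries, 57 were low and 119 were at 0. Of those present, 59 had at least 10 per kb and 22 at least 100 per kb. The highest after Cst3, C1q, Ctsd, Ctss, Sparc, Psap and Lgmn were Apoe, the main lipid carrier of brain tissue, at 1001 ± 85.8 per kb, the cathepsin Ctsz at 987 ± 134 per kb, its relative Ctsb at 565 ± 48.7 per kb, Grn, the precursor of the lysosomal granulins, at 549 ± 68.02 per kb, the lysozyme Lyz2 at 473 ± 65.2 per kb, the metalloproteinase inhibitor Timp2 at 286 ± 31.9 per kb and the galectin Lgals9 at 171 ± 25.8 per kb. Outside C1q, complement genes were scarce, with the inhibitor Clu at 15.5 ± 2.48 per kb, and C4b and C1s1 low.

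Chemokines were led by Ccl6 at 151 ± 25.2 per kb and Ccl9 at 62.5 ± 9.40 per kb, relatives found in rodents, followed by Ccl3 at 28.2 ± 3.58 per kb and Ccl12 at 25.7 ± 7.57 per kb. Of 41 chemokines 8 were present (19.5%, against 52.5% of all protein-coding genes), and 13 of the 20 at 0 lay in runs of such genes. Interleukins had lower levels, and 9 of 46 were present (19.6%, against the same 52.5%). The highest were Il16 at 31.4 ± 4.31 per kb, Ebi3, a subunit of IL-27 and IL-35, at 26.4 ± 3.70 per kb, Il1a at 14.8 ± 3.95 per kb and Il18 at 14.2 ± 2.94 per kb. Il10 was listed at 0, and Il11 and Il12a were low. All 17 interferon genes were listed at 0, 13 of them in runs. Tnf, which lies in such a run and was picked out after its values were seen, was also at 0, and among the TNF ligands Tnfsf12 (TWEAK) was highest at 67.2 ± 7.37 per kb, a value shared with the overlapping gene Tnfsfm13.

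Growth factors formed a short list. Tgfb1 had 94.3 ± 9.73 per kb, Pdgfb 58.8 ± 8.59 per kb, Vegfb 53.5 ± 8.81 per kb and Tgfa 42.2 ± 6.70 per kb, and Lefty1, an inhibitor of Nodal signalling, had 16.6 ± 3.21 per kb. Gas6 and Sparcl1 had 84.4 ± 8.82 per kb and 76.3 ± 12.2 per kb, and the semaphorin Sema4d had 73.5 ± 8.50 per kb. Csf1 had 9.93 ± 2.21 per kb and Il34, the other ligand of Csf1r, 2.49 ± 0.499 per kb; Csf2 and Csf3 were listed at 0. Bdnf, a neurotrophin, was low with 72 counts over the 6 libraries, and so were Gdnf and Artn. Igf1, picked out after its values were seen, reached 1 CPM in some libraries only, at 0.186 ± 0.164 per kb, while Igfbp4 had 32.6 ± 3.75 per kb. Of 19 Wnt ligands 4 were present (21.1%) and 8 reached 1 CPM in some libraries only, and of 22 Fgf ligands 5 were present (22.7%) and 6 did so. The share of all protein-coding genes present was 52.5%.

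**Figure D4:**
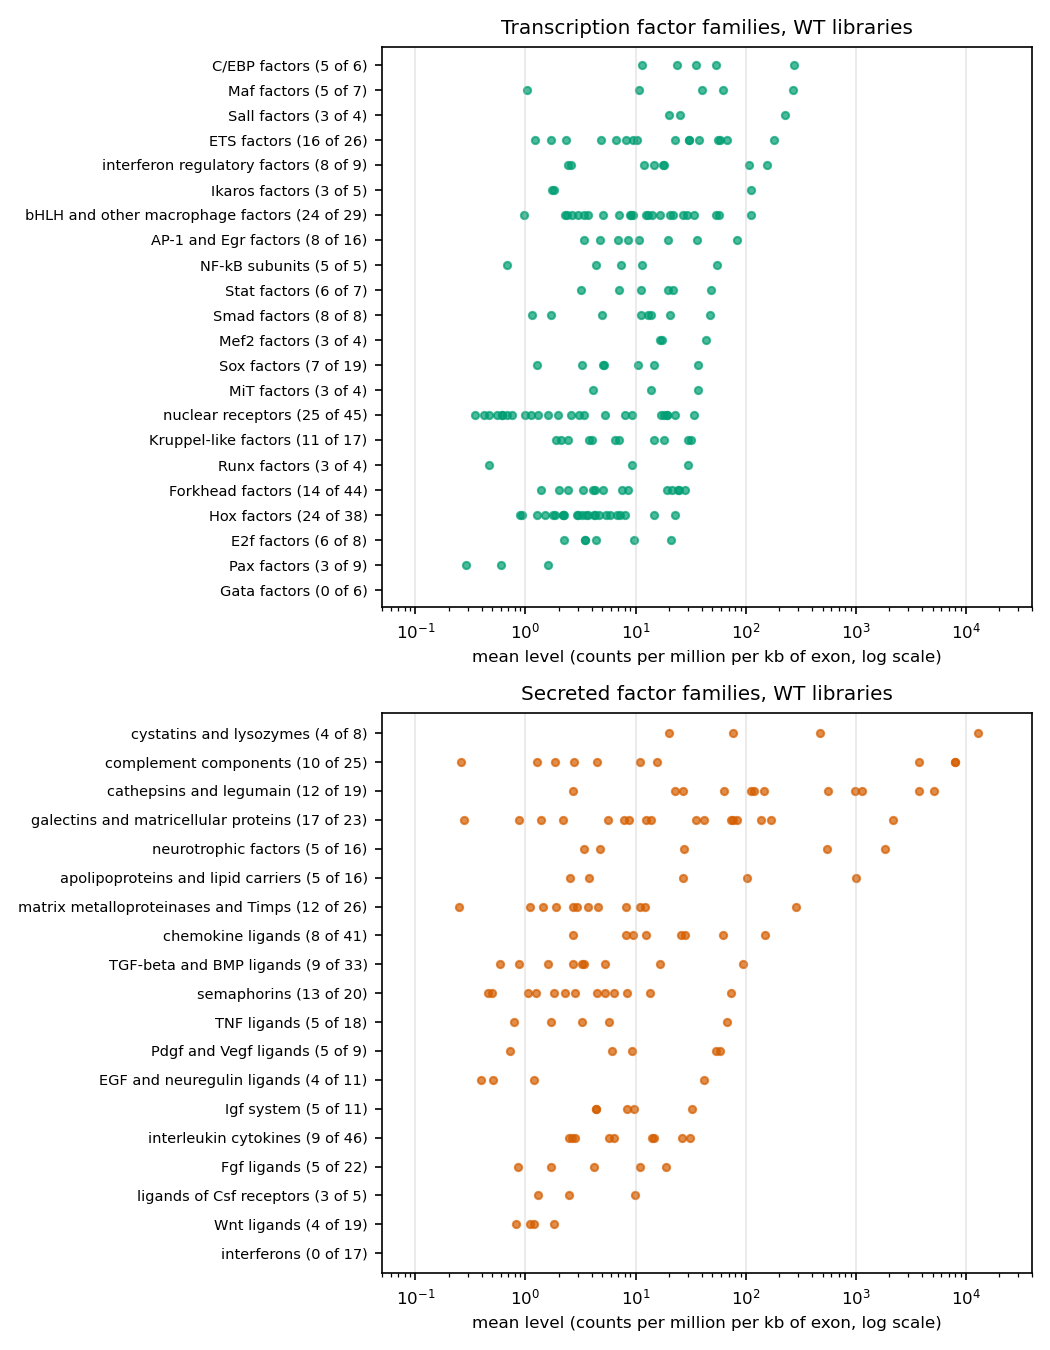
Mean level over the 6 WT libraries (CPM per kb of merged exon, log scale) of each present transcription factor (top) and secreted factor (bottom), by family, with the number present of the number listed in brackets. Secreted factors reach 13037 per kb (Cst3) and transcription factors 278 per kb (Cebpa), and the Gata factors and interferons have no present member.

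Related genes were compared within libraries, as the log2 ratio of their levels, in 10 pairs, of which 8 are given here. Each ratio was tested with a two-sided exact permutation test over the signs of the 6 libraries, whose smallest p is 0.0312, with Benjamini-Hochberg adjustment over the 10 pairs. The receptor P2ry12 lay below P2ry13 in 6 of 6 libraries, with a log2 ratio of -0.69 ± 0.25 (p = 0.0312, exact permutation, adjusted p = 0.0347). The same p and adjusted p were reached by 6 other pairs given here. Tgfbr1 exceeded Tgfbr2 by a log2 ratio of 0.36 ± 0.13, and Mertk exceeded Axl by 2.22 ± 0.30. Among ligands, Csf1 exceeded Il34 by a log2 ratio of 1.98 ± 0.37, Il1a exceeded Il1b by 4.08 ± 1.07 (4.97 without WT13, WT16 and WT17) and Tgfb1 exceeded Tgfb2 by 8.79 ± 0.99. Il1b and Tgfb2 had only 0.975 ± 0.488 per kb and 0.253 ± 0.174 per kb, so the size of these ratios rests on low levels. Both ratios were lowest in WT13, at 2.71 for Il1a over Il1b and 7.43 for Tgfb1 over Tgfb2. Irf8 lay below Irf5 by a log2 ratio of -0.57 ± 0.07 on merged exons, but with the longest transcript as length the ratio turned to 0.08. Mef2c over Mef2a, at a log2 ratio of 0.08 ± 0.08, was positive in 5 of 6 libraries and missed the threshold of 0.05 (p = 0.0938, exact permutation, adjusted p = 0.0938). Exons of Irf5 and Il1a, and those of Fgfr3, Gpr84, Bhlhe41, Ebi3, Il16 and Ctsb described above, overlap another annotated gene over at least 10% of their length.

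The spread between libraries was read per gene and per list. The coefficient of variation, the SD over the mean, had a median of 13.02% over the 21 microglial markers and 15.6% over 8603 protein-coding genes at a mean of 10 CPM or more. Over 3611 named protein-coding genes at a mean of 50 CPM or more the median was 12.39%, so over all 6 libraries microglial markers were not steadier than other abundant genes. This comparison at 50 CPM was not repeated with libraries left out. It was 20.96% over 16 neuronal, 18.1% over 14 astrocyte and 15.3% over 13 oligodendrocyte markers, 46.7% over 5 fibroblast markers and 131% over 4 Schwann cell markers. Leaving out WT17 lowered the last 2 to 25.9% and 47.4%. Leaving out WT13, WT16 and WT17 together, a set taken from earlier results on these data, gave 4.35% for microglial, 12.1% for neuronal and 9.61% for all genes. Within receptors, the median was 18.7% for Toll-like receptors and 14.1% for Fc receptors, but 40.7% for glutamate receptors and 42.3% for Eph receptors. Among named genes at a mean of 50 CPM or more, the steadiest was Cux1, a homeobox factor, at 204 ± 2.77 CPM, followed by Strn4, Syngr1 and Foxo4, with coefficients of 1.36% to 2.78%. The most variable was Lars2, the mitochondrial leucyl-tRNA synthetase gene, with 1005.5 CPM in WT17 and 51.9 to 182 CPM in the others. The other 9 most variable genes were Map1a, Akap6, Tro, Lmtk3, Dock3, Rasgrf1, Plec, Ank1 and Apc2, each highest in WT17, and Map1a, a microtubule protein of neurons, ran from 643 CPM in WT15 to 4469 CPM in WT17. Like Lars2, the noncoding RNA gene Gm42418 was highest in WT17, at 3701 CPM, and lowest in WT15, at 709 CPM. It was picked out after its values were seen, and whether it shares a source of reads with Lars2 was not tested. WT13 was the lowest library for 27.3% of the 8603 genes and WT17 for 26.0%.

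**Figure D5:**
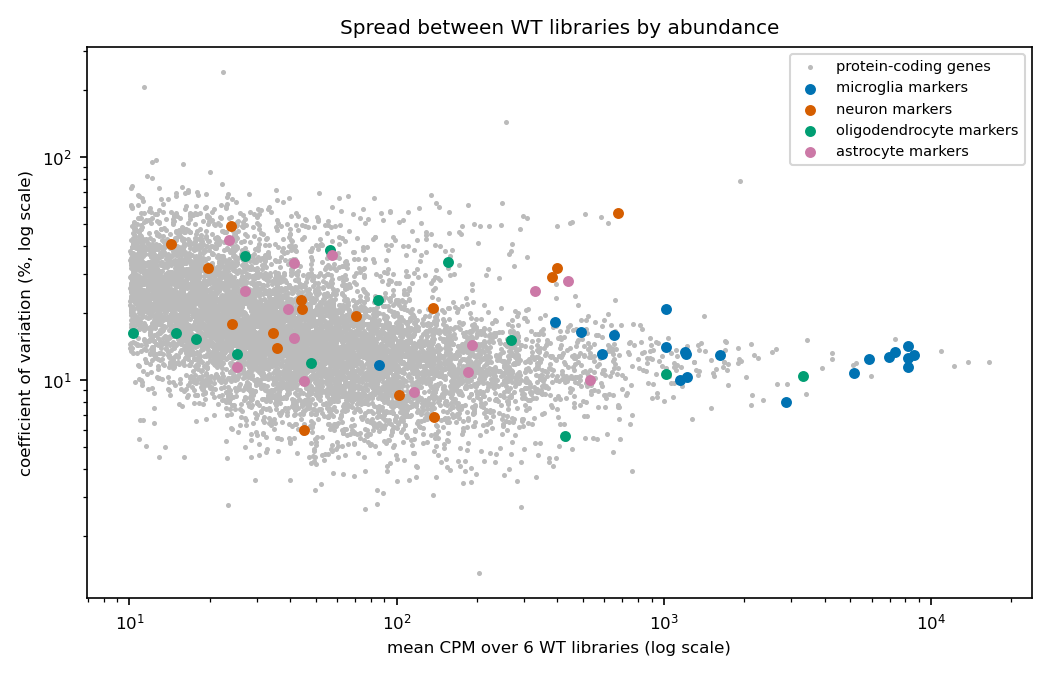
Coefficient of variation over the 6 WT libraries (%, log scale) against mean abundance (CPM, log scale) of 8603 protein-coding genes, with markers of 4 cell types in colour. Microglial markers cluster near their median of 13.02%, while neuronal markers, with a median of 20.96%, reach 56.4%.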

How the data were processed

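Ribosome-bound RNA was pulled down from spinal cord with the RiboTag method, and libraries were made with a KAPA stranded kit after mRNA enrichment, per the labels' protocols. The authors deposited 1 table of raw counts per Ensembl gene on mm10, not normalized. The submitters' processing notes name bcl2fastq 2.17, FastQC and Trimmomatic; no aligner, counter, strand setting or annotation is named there or in the labels. Between 73.5% and 83.9% of small counts were even, and the table does not tell a gene without reads from one that was not counted.

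Here the 6 wild-type columns were scaled with edgeR 4.0.16 TMM factors to CPM and divided by merged exon length from GENCODE M21, which annotated 37693 of 39017 rows; the others held 0.578% to 0.628% of counts. No library was a copy of another: the mean chi-square per gene between libraries was at least 17.8. Genes were flagged where at least 20% of their 50-base sequence words occur in another gene's transcripts, or where at least 10% of exon is overlapped by another gene. The text names the 20 protein-coding genes with the highest level (leaving out predicted symbols and mitochondrial genes), up to 5 present members of each list and up to 4 at 0 or under 1 CPM in every library that lie in no run of genes at 0, all markers, the genes of the 10 pairs, and the 10 most and 10 least variable genes at 50 CPM or more. Some genes the rule names are not reported here, and genes outside it are marked as such. Members and lists were chosen with earlier results of these data known. Presence, ratios and coefficients of variation were tested on simulated data. Alternatives were presence at 0.5 or 5 CPM or in at least 3 libraries, library totals or DESeq2 1.42.0 size factors, the longest transcript as length, a prior of 2 counts in place of 0.5, and leaving out libraries. Intervals cover counting error only.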

Additional observations from a re-analysis of the deposited data

Results flagged for a closer look

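Of 187 genes named with a count, 20 had 1 library farther from the other 5 than Dixon's 95% limit, which chance alone passes in about 1 in 20 groups. Of these 20, 11 stayed under 1 CPM in every library, and 6 of the 11 had counts in 1 library only, which by itself puts them past the limit. Prx stood at 10.6 per kb in WT17 against 0.150 to 0.592 per kb in the others, and Lars2 at 90.68 per kb in WT17 against 4.68 to 16.4 per kb. Ccl12 was low in WT17, at 11.0 per kb against 25.7 to 31.5 per kb, as was Il18, at 8.319 per kb against 14.7 to 16.3 per kb, and Cd33 was low in WT13, at 20.97 per kb against 29.2 to 32.4 per kb. Ifnar1 was high in WT8, at 21.72 per kb against 16.7 to 18.5 per kb, and Tnfrsf13b was high in WT16, at 85.62 per kb against 68.2 to 71.7 per kb. Il34 was high in WT13, at 3.445 per kb against 2.08 to 2.56 per kb, and so was Igf1, at 0.5076 per kb against 0.0581 to 0.197 per kb. The genes that follow stayed under 1 CPM in every library. Ms4a7 (0.1747 per kb), Tlr8 (0.01669 per kb) and Artn (0.3234 per kb) were highest in WT16, while Timd4 (0.1164 per kb), Vsig4 (0.08519 per kb) and Il12a (0.07432 per kb) were highest in WT15. Fcrla (0.4372 per kb) and C4b (0.05152 per kb) were highest in WT9, C1s1 (0.2603 per kb) in WT13, Stat4 (0.02971 per kb) in WT8 and Gdnf (0.1093 per kb) in WT17.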

How the results depend on the processing

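The count of present genes stayed within 1.5 times of 11185 under every alternative run, from 9060 at 5 CPM to 12577 with 1 CPM in at least 3 libraries, and so did the counts of present receptors (213 to 353), transcription factors (153 to 219) and secreted factors (96 to 177). Of 71 family lists 17 fell by more than 1.5 times at 5 CPM, among them TREM and CD300 receptors (3 of 5 left), Csf family receptors (5 of 8), Wnt ligands (1 of 4) and Fgf ligands (3 of 5), beside those given in the text, and 1, the Gata factors, gained at 0.5 CPM. Levels of 1339 genes were checked, a wider set than the genes named here. Library totals or DESeq2 size factors moved none of the 1339 by more than 1 SD, the longest transcript as length moved 689, and leaving out WT13, WT16 and WT17 moved 31. Of the 20 most abundant genes, 17 stayed with the longest transcript, 16 without length correction and 20 without those libraries. Irf8 over Irf5 turned to a log2 ratio of 0.077 with the longest transcript (adjusted p = 0.0694, exact permutation), where only the lengths differ. With 1 library left out the smallest exact permutation p is 0.0625 and no pair can pass; the log2 ratios then ran from -0.77 to -0.63 for P2ry12 over P2ry13, 0.32 to 0.39 for Tgfbr1 over Tgfbr2, 2.14 to 2.30 for Mertk over Axl, -0.60 to -0.56 for Irf8 over Irf5, 1.89 to 2.06 for Csf1 over Il34, 3.81 to 4.35 for Il1a over Il1b and 8.58 to 9.06 for Tgfb1 over Tgfb2. Without WT13, WT16 and WT17 (smallest p 0.25) they were -0.65, 0.41, 2.42, -0.54, 1.83, 4.97 and 9.26 in the same order, and the median coefficients of variation were 9.61% for all genes, 4.35% for microglial, 12.1% for neuronal, 8.89% for astrocyte, 8.26% for oligodendrocyte, 16.7% for fibroblast and 12.4% for Schwann cell markers. With 1 library left out these medians ran from 12.2% (without WT13) to 23.7% for endothelial, 25.9% (without WT17) to 49.1% for fibroblast and 47.4% (without WT17) to 132.5% for Schwann cell markers. Over all genes with any count the median was 26.0% for all genes, 40.3% for oligodendrocyte precursor and 84.1% for endothelial markers; the causes were not tested. Apart from the gene pairs within libraries, no pairing of wild-type with knockout libraries was possible, because the account covers 1 group and these libraries share no replicate number. Genes under 1 CPM rest on fewer than 43.0 counts a library.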
